A study of Mus musculus with 2 samples.

Results

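The genes described here encode the proteins of the mitochondrial ribosome, or mitoribosome. They were taken as the genes that have a protein_coding transcript and a symbol made of Mrpl or Mrps, a number and at most 1 further letter. This gave 78 of the 55536 named genes in the tables, or of the 22015 nuclear-encoded protein-coding genes. The symbols follow the subunit a protein was first assigned to, with L for the large and S for the small subunit. By the known structure of the mammalian mitoribosome, Mrps18a and Mrps30 lie in the large subunit, and Mrps36 is known as a subunit of the oxoglutarate dehydrogenase complex. The members were therefore read as 51 large-subunit genes, 26 small-subunit genes and Mrps36.

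The study sequenced ribosomal RNA-depleted total RNA from the nucleoplasmic fraction of macrophages grown from mouse bone marrow, strain C57BL/6J. The cells had been exposed to Lipid A, the part of bacterial lipopolysaccharide that the receptor Tlr4 senses, at 100 ng/ml for 120 min. Both libraries, biological replicates 1 and 2, received this treatment, so the series holds 1 group and no untreated cells, and nothing below says what Lipid A did. One label field gives the fraction as nucleus only, both libraries name the same donor entry, and sex and age are given as not collected. The labels give an RNA input of 1 µg for replicate 1 and 500 ng for replicate 2, so RNA input and replicate cannot be told apart. The spread between the 2 libraries is the only error available, and it may be partly technical.

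The mitoribosome makes the few proteins that the mitochondrial genome encodes, all of them parts of the respiratory chain and ATP synthase. Its ribosomal RNA is made in the mitochondrion, but each of its proteins is encoded in the nucleus, made in the cytosol and imported. Compared with bacterial ribosomes it has lost RNA and gained proteins that are known only from mitochondria. Its large subunit is bound to the inner membrane, into which the new chains are inserted. RNA counted in the nucleoplasm includes transcripts that are not fully spliced or not yet exported, so levels here are of RNA in that fraction and not of the proteins. The share of RNA from outside the nucleus was not measured.

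The gene tables assigned 14171635 and 16332668 estimated counts to named genes in replicates 1 and 2. The libraries differed in ways that touch the results below. Genes for the 13 mitochondrially encoded proteins took 0.412% of counts in replicate 1 and 8.67% in replicate 2. All 8 macrophage markers were at 1 TPM or more in both libraries, and their median was 75.2 TPM in replicate 1 against 113 TPM in replicate 2. By raw TPM they did not all go 1 way. Lyz2, Cd68, Csf1r, Itgam and Fcgr1 were higher in replicate 2, and Adgre1, Mertk and Spi1 in replicate 1. TPM is an abundance per length, scaled to a fixed total within each library. For the 5 markers of stromal cells the median was 16.4 TPM in replicate 1 against 0.08 TPM in replicate 2, and their summed counts were 4642 and 24. Of these markers, 1 had no count in replicate 2 and none was at 0 in replicate 1. The part of stromal RNA in the differences between the libraries was not tested.

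Promoter sequences are shown because nuclear genes for mitochondrial proteins are known to share binding motifs of the factors NRF1, ETS (GABP) and YY1. Windows of 250 bases before to 50 bases after the start, from RefSeq on GRCm38.p6, the build of mm10, were matched to 69 of the 78 members. Letters searched on both strands were GCGCATGCG for NRF1, CCGGAAG for ETS and AAGATGGC for YY1. The 100 bases before the start follow for 6 members, 5′ to 3′ on the strand of the gene, with matches on either strand in capitals. Mrpl32 and Mrpl9 show NRF1 letters, Mrpl22 both NRF1 and ETS letters, Mrpl43 and Mrpl52 ETS letters, and Mrpl24, the highest gene-table member, none.
Mrpl32, chr13:14613038-14613137, minus strand: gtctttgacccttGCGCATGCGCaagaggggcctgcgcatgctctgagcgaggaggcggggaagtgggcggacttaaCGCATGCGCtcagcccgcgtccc
Mrpl9, chr3:94443236-94443335, plus strand: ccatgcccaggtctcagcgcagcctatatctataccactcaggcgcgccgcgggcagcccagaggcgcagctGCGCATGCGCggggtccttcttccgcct
Mrpl22, chr11:58171564-58171663, plus strand: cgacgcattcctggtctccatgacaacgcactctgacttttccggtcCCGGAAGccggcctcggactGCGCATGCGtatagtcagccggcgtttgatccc
Mrpl43, chr19:45006443-45006542, minus strand: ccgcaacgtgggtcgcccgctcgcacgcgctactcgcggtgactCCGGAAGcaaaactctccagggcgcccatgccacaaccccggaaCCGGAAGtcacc
Mrpl52, chr14:54426809-54426908, plus strand: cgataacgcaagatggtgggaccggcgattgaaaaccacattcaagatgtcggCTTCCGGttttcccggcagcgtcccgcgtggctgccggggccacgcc
Mrpl24, chr3:87919444-87919543, plus strand: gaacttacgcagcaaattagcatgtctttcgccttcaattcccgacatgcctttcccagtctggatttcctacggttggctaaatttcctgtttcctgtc

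NRF1 letters stood in the window of 7 members (10.1%), against 4.51% of genes detected in these libraries and 1.95% of all genes with a window. ETS letters stood in 26 members (37.7%), against 23.3% and 9.93%. YY1 letters stood in 12 members (17.4%), against 6.06% and 3.19%. At least 1 of the 3 motifs was found in 38 members (55.1%), against 30.9% of detected genes and 14.1% of all genes. GC content was read over the 250 bases before the start. Its median over windows was 58.4% for members, 60% for detected protein-coding genes and 52.4% for all genes. The members' windows were thus not richer in GC than those of detected genes as a whole. These are letter matches in a fixed window and show no binding.

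Members also shared a feature of position. An annotated start of another protein-coding gene lay within 1000 bp, on the opposite strand, for 33 members (42.3%), against 17.7% of detected protein-coding genes. Mrps11 and Mrpl46, one of each subunit, form such a head-to-head pair with each other. The other partners cover many functions. Mrpl32 is paired with the proteasome gene Psma2, Mrpl40 with the histone chaperone gene Hira, Mrpl51 with the condensin gene Ncapd2, and Mrpl36 with Ndufs6, a subunit of complex I. The members were spread over 17 chromosomes, most often chromosome 11 with 11 of them.

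RNA of nearly all mitoribosomal protein genes was found in the nucleoplasmic fraction, at low levels. A TPM of 1 or more in both libraries was reached by 74 of 78 members (94.9%), against 40.4% of nuclear-encoded protein-coding genes. The median member had 3.64 TPM in replicate 1 and 2.85 TPM in replicate 2. The median detected protein-coding gene had 10.7 TPM in replicate 1 and 7.35 TPM in replicate 2, and only 9 members had a mean above the 9.04 TPM of that median. At a stricter limit of 5 TPM in both libraries, 18 members remained, against 24.4% of protein-coding genes. In bulk RNA, fewer cells making a transcript and less RNA per cell cannot be told apart.

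Counts behind these levels were small. The 78 members together took 7495 estimated counts in replicate 1 and 8066 in replicate 2. These are 0.0529% (95% Wilson interval 0.0517% to 0.0541%) of counts in replicate 1 and 0.0494% (0.0483% to 0.0505%) in replicate 2. The median member had 50.3 and 55.5 counts, and 52 members had fewer than 100 in both libraries. Intervals cover counting error only and no variation between libraries. PCR copies of a molecule were not marked by molecular identifiers, so the intervals may be too narrow even for counting error.

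The medians of the subunits differed by less than the libraries did. The median large-subunit gene had 3.64 TPM in replicate 1 against 2.80 TPM in replicate 2. Small-subunit genes had medians of 3.76 TPM and 3.06 TPM in the same libraries. Members with a counterpart in the bacterial ribosome, by standard nomenclature, numbered 45 and had medians of 4.04 and 3.24 TPM in replicates 1 and 2. The 30 members known only from mitochondria had medians of 2.63 and 2.43 TPM. Mrps36 and the S18 relatives Mrps18a and Mrps18b were left out of both classes. This split was made after the levels had been seen and was not tested. Mrps36 had 2.00 TPM in replicate 1 and 1.27 TPM in replicate 2, from 11 and 13 counts.

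**Figure D1:**
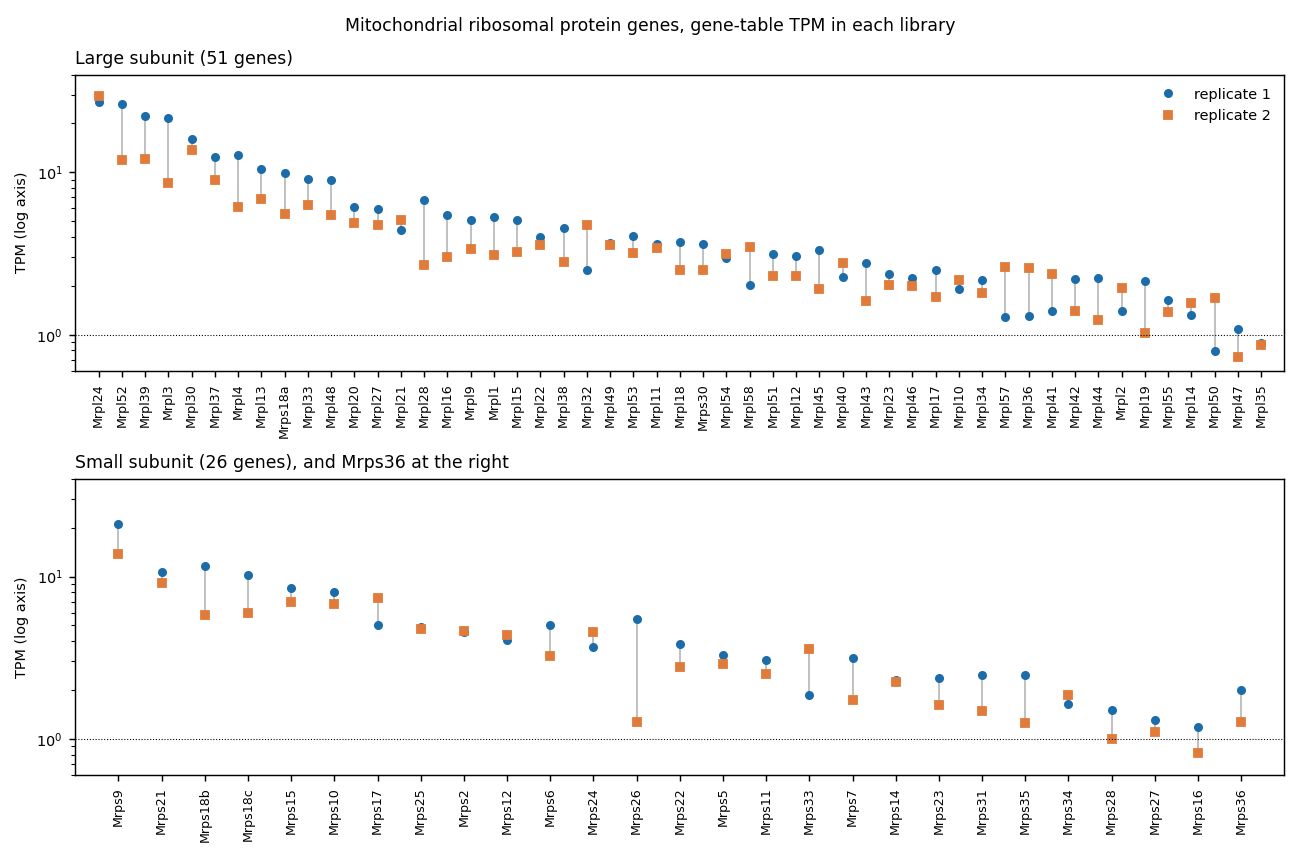
TPM of each of the 78 members in replicate 1 (circles) and replicate 2 (squares), on a log axis, with genes in order of their mean and a dotted line at 1 TPM. Gene-table means run down from Mrpl24 at 28.4 TPM to Mrpl35 at 0.88 TPM with no gap that sets a class apart. Replicate 1 is the higher library for 59 members. The median protein-coding gene averaging at least 1 TPM is also higher there, by 0.52 on the scale of log2(TPM + 1).

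In the gene table, levels varied 32.3-fold between members, and a few genes held much of the total. The 8 highest members took 36.2% of all member TPM in replicate 1 and 33.4% in replicate 2. Mrpl24, at chr3:87919506-87923672 on the plus strand, lies at the exit of the polypeptide tunnel in the large subunit and was the highest there. Replicate 1 gave it 27.2 TPM and replicate 2 gave it 29.6 TPM, from 342 and 501 counts. Rrnad1, on the opposite strand, shares 26.3% of its exon bases. Mrpl52, a mitochondria-specific large-subunit protein, had 26.2 and 11.8 TPM in the same libraries. Its mean of 19.0 ± 10.2 TPM (SD, n = 2) cannot be placed apart from the neighbours in the order. In the read-based table, made from the read files without the alignment, Mrpl24 had 20.3 and 21.9 TPM in replicates 1 and 2. Mrpl20 stood above it in that table, at 69.4 and 27.1 TPM, so the top place rests on the table chosen.

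Next in the order of the gene table came Mrps9, its highest small-subunit gene and a relative of bacterial S9, at chr1:42851233-42905683 on the plus strand. It had 21.2 TPM in replicate 1 and 13.8 TPM in replicate 2. Mrpl39, a mitochondria-specific protein at chr16:84717576-84735742 on the minus strand, had 22.3 and 12.1 TPM from 628 and 491 counts. Mrpl3, whose bacterial relative L3 helps to start assembly of the large subunit, had 21.5 TPM in replicate 1 and 8.64 TPM in replicate 2. Mrpl30 had 16.2 and 13.8 TPM, Mrpl37 had 12.4 and 9.00 TPM, and Mrps21 had 10.7 and 9.15 TPM. The ranges of Mrps9, Mrpl39, Mrpl3 and Mrpl30 between the libraries overlap one another, so their order is not resolved.

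By mean TPM in the gene table, the lowest member was Mrpl35, at chr6:71812997-71826969 on the minus strand, with 0.89 TPM in replicate 1 against 0.87 TPM in replicate 2. Its 44 and 65 counts carry exact Poisson intervals of 32.0 to 59.1 and 50.2 to 82.8. In the read-based table it had 4.94 and 2.48 TPM and ranked 36 from the lowest, so its place rests on the table chosen. Mrpl47 had 1.09 and 0.73 TPM, Mrps16 had 1.19 and 0.82 TPM, and Mrpl50 had 0.79 and 1.69 TPM. These 4 genes were the ones below 1 TPM in at least 1 library. The next genes up were Mrps27 with 1.31 and 1.10 TPM, Mrps28 with 1.51 and 1.00 TPM, Mrpl14 with 1.33 and 1.57 TPM and Mrpl55 with 1.64 and 1.38 TPM. Mrps28 rested on 12 counts in each library and Mrpl14 on 7 and 12, too few to order them.

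Members with special roles lay across this range. The 3 genes of the S18 family share a single bacterial counterpart, and their values overlapped. Mrps18a had 9.91 TPM in replicate 1 and 5.54 TPM in replicate 2, Mrps18b had 11.6 and 5.83 TPM, and Mrps18c had 10.2 and 5.93 TPM. Mrpl12, the stalk protein that is also known to bind the mitochondrial RNA polymerase, had 3.06 and 2.31 TPM. Mrpl58, a peptidyl-tRNA hydrolase that frees stalled ribosomes, had 2.02 and 3.47 TPM from 16 and 39 counts. Mrpl44, which carries a fold of the ribonuclease III family, had 2.24 and 1.24 TPM, and Mrps30 had 3.64 and 2.50 TPM.

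Sites of the ribosome can be read from further members, grouped here after their levels had been seen. Mrps12, whose bacterial relative S12 lines the decoding centre, had 4.04 TPM in replicate 1 and 4.34 TPM in replicate 2. At the base of the stalk that recruits translation factors, Mrpl10 had 1.91 and 2.17 TPM and Mrpl11 had 3.64 and 3.41 TPM, near Mrpl12. Around the tunnel exit, Mrpl22 had 4.01 and 3.58 TPM and Mrpl23 had 2.35 and 2.02 TPM, far below their neighbour Mrpl24. The values of Mrpl22 and Mrpl23 did not overlap those of Mrpl24. The 38 members not picked out by any rule had mean levels of 1.58 to 7.76 TPM with a median of 3.23 TPM. Their summed counts ran from 39 to 548. By raw TPM, 31 of them were higher in replicate 1. The median protein-coding gene averaging at least 1 TPM was also higher there, by 0.52 on the scale of log2(TPM + 1).

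Other genes of the mitochondrial translation system lay in the same low range, and the cytosolic ribosome lay far above it. Of the 5 subunit genes with symbols of another kind, 4 were detected, and the median gene had 7.21 TPM in replicate 1 against 4.90 TPM in replicate 2. Dap3, a GTP-binding protein of the small subunit, had the highest mean of them at 42.4 and 20.9 TPM, above every member of the symbol set in replicate 1. Gadd45gip1, a large-subunit protein, had the lowest mean at 2.44 and 0.79 TPM. Assembly and ribosomal RNA modification factors had medians of 3.48 and 2.14 TPM with 16 of 24 detected, and ran from Mterf3 at 19.8 and 21.96 TPM to Mettl15 at 0.11 and 0.14 TPM.

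Translation factors had medians of 5.70 TPM in replicate 1 against 4.07 TPM in replicate 2, with 12 of 15 detected. The highest was Gfm2, which recycles ribosomes after termination, at 12.9 and 8.99 TPM. Taco1, a translational activator of the cytochrome oxidase subunit I mRNA, had the lowest mean, at 0.67 and 0.32 TPM. Mitochondrial aminoacyl-tRNA synthetases had medians of 2.51 and 1.76 TPM with 11 of 17 detected. Nuclear-encoded respiratory chain genes had medians of 6.98 and 6.30 TPM with 77 of 87 detected. Cytosolic ribosomal protein genes had medians of 34.5 TPM in replicate 1 against 31.3 TPM in replicate 2 with 77 of 80 detected, and all 77 lay above the median member.

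**Figure D2:**
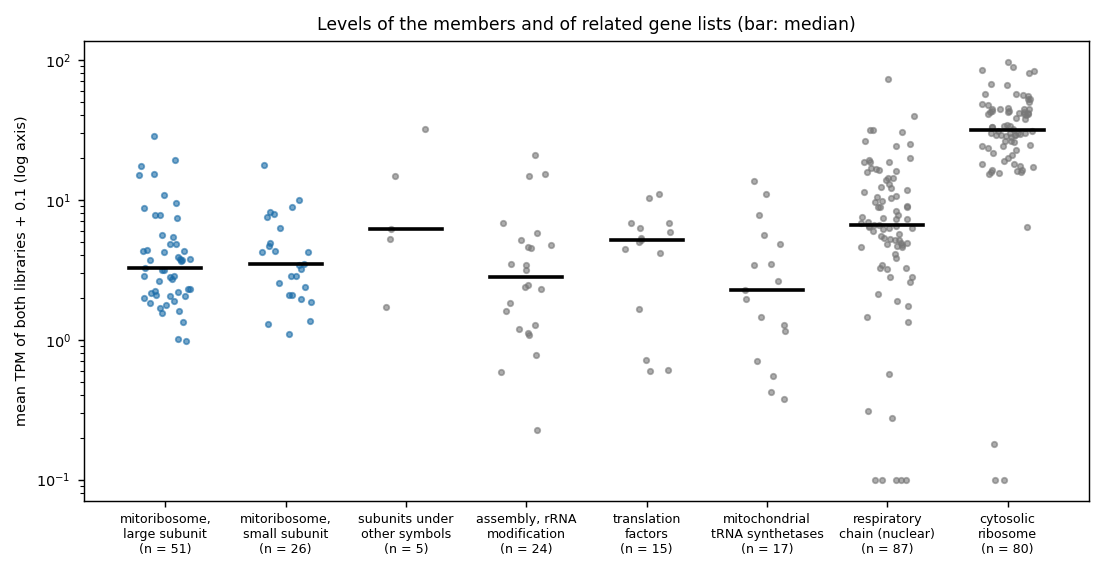
Mean TPM over both libraries plus 0.1, on a log axis, for the large-subunit and small-subunit members (blue) and for 6 related lists (grey), 1 point per gene with a bar at the median. The members' medians of 3.13 and 3.36 TPM lie beside those of the other mitochondrial translation lists and below the 31.4 TPM of the cytosolic ribosome.

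Much of the RNA of the members at 5 TPM or more in both libraries was assigned to transcripts that are not annotated as protein_coding. The 78 members have 343 annotated transcripts: 170 protein_coding, 88 retained_intron, 61 processed_transcript and 24 nonsense_mediated_decay. A retained_intron transcript is annotated as holding intron sequence, and a processed_transcript has no open reading frame in the annotation. Over all members' TPM, protein_coding transcripts held 58.7% in replicate 1 and 59.6% in replicate 2, and retained_intron transcripts held 30.4% and 31.2%. Over all nuclear-encoded protein-coding genes, protein_coding transcripts held 56.5% in replicate 1 and 65.2% in replicate 2. Retained_intron transcripts of these genes held 31.9% in replicate 1 and 25.4% in replicate 2. For both types the members thus lay on either side of the background.

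Gene by gene, the noncoding share was read for the 18 members at 5 TPM or more in both libraries, each of which has such a transcript. Its median was 51.5% in replicate 1 and 46.4% in replicate 2, against 45.3% and 38.3% over 4704 protein-coding genes under the same rule. More than 50% of TPM was noncoding in 9 of the 18 members, against 38.1% of those genes. The median of these 18 lay above the background in each library, and no test of that gap was possible. Over all 68 members with a noncoding transcript, whatever their level, the medians were 39.4% in replicate 1 and 39.2% in replicate 2. No background was read for that wider set. The share depends on how reads are divided between overlapping transcripts of a gene. In the read-based table, made from the read files without the alignment, the 18 members had medians of 65.9% and 64.5%, against 56.7% and 49.5% over the background genes. In counts, which are not divided by length, the members had 57.1% and 51.4%, against 25.8% and 21.2%. The size of the gap thus depends on the measure.

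The share ran from nearly all to nearly none of a gene's RNA. Mrps9 was highest, with 88.9% in replicate 1 and 99.3% in replicate 2. Its coding transcript Mrps9-201 had 39.99 counts in replicate 1 and 2.41 in replicate 2, while the retained_intron transcript Mrps9-205 had 254 and 238. Mrps10 had 79.6% and 66.4%, Mrpl37 had 68.7% and 72.7%, and Mrps18b had 66.7% and 71.5%. Mrpl13 followed with 63.7% and 61.6%. Mrpl4 had 57.7% and 60.7%, against 37.4% and 48.8% in the read-based table. At the other end, Mrps21 had 3.84% in replicate 1 and 0% in replicate 2, and Mrpl39 had 4.26% and 9.73%. Mrpl30 had 20.8% and 28.3%. Mrps17 had 13.8% and 11.2% in these tables but 73.7% and 67.6% in the read-based table, so its share rests on the method of assignment.

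**Figure D3:**
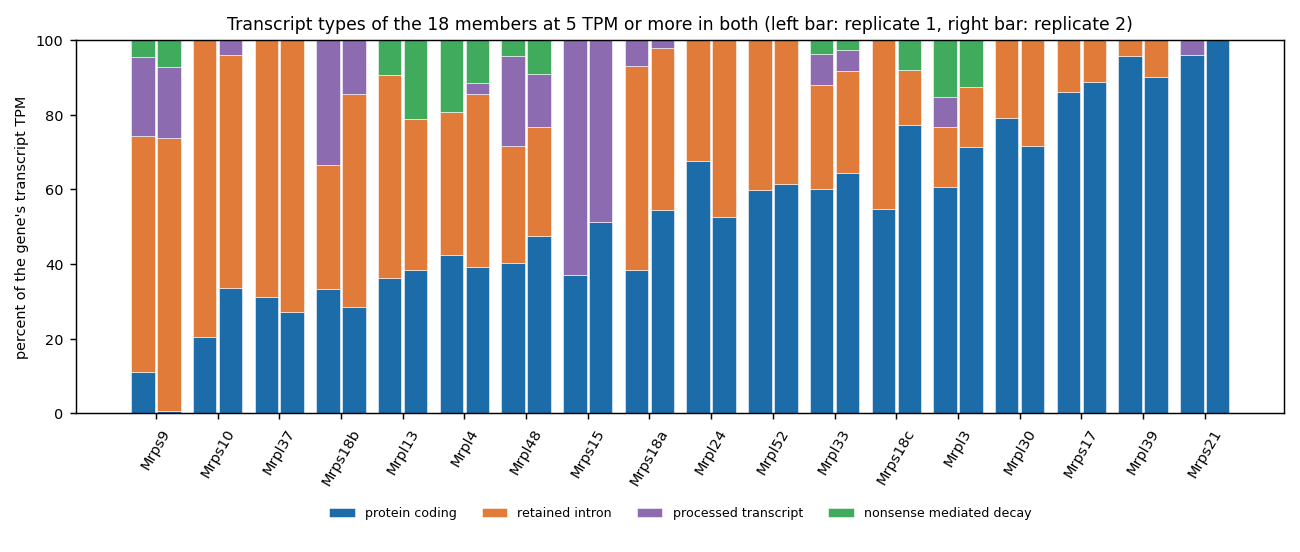
Percent of each gene's transcript TPM in protein_coding, retained_intron, processed_transcript and nonsense_mediated_decay transcripts, for the 18 members at 5 TPM or more in both libraries (left bar replicate 1, right bar replicate 2), ordered by noncoding share. Retained_intron transcripts make up the largest noncoding part in both libraries for 15 genes, while in Mrps15 it is processed_transcript.

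Introns that lie wholly within a retained_intron transcript could be placed in 22 of the 48 members with a retained_intron transcript. None could be placed in Mrps9, Mrpl37, Mrpl13 or Mrps18b. There were 50 in all, with a median length of 570.5 bp and a range of 68 to 2327 bp. Some of the 50 are alternatives that share a splice site, as in Mrps17 and Mrpl23, so they are not all separate introns. The splice sites of 4 are shown because these transcripts carried much of the RNA of a gene named here. Each window was read from GENCODE M21 transcripts (mm10) on the strand of the gene, with 10 exon bases beside 20 intron bases. Capitals mark the first and last 2 intron bases, which were GT and AG in all 50.
Mrpl52-203 donor, intron chr14:54426961-54427033: tggctgtccaGTgagtgattgtggggttgg
Mrpl52-203 acceptor, the same intron: actccctgctcttccattAGgtgtccggag
Mrps10-206 donor, intron chr17:47370159-47370263: atcgtcccagGTtagttaacactttagaaa
Mrps10-206 acceptor, the same intron: ggcagcttttctctcgttAGttttcgcata
Mrps26-201 donor, intron chr2:130564228-130564307: aggagctacgGTgcgagaggcccgggactg
Mrps26-201 acceptor, the same intron: cggcgtcttgcccctcgcAGgatagcgagg
Mrpl32-204 donor, intron chr13:14611605-14612891: cctccgtgggGTccgtaaggagagagttcg
Mrpl32-204 acceptor, the same intron: atctctgttttgttttatAGcaccagcatt

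Mrpl52-203 had 8.51 TPM in replicate 1 and 4.57 TPM in replicate 2, or 32.5% and 38.6% of the gene. The intron shown is 73 bp long, near the lower end of the range. Mrps10-206 had 4.20 and 2.35 TPM and was the largest single transcript of its gene. Mrps26-201 had 4.68 TPM in replicate 1 and 1.07 TPM in replicate 2, or 84.9% and 83.6% of its gene. Mrpl32-204 had 2.04 and 2.80 TPM, or 81.0% and 58.7% of its gene. Its intron shown is 1287 bp long. In the read-based table the noncoding share of Mrps26 was 55.6% in replicate 1 and 28.5% in replicate 2, so it rests on the table chosen.

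Between the libraries, members were on the whole relatively lower in replicate 1 than the median gene was. Raw TPM was higher in replicate 1 for 59 members and in replicate 2 for 19. The median protein-coding gene, however, was 0.52 higher in replicate 1 on the scale of log2(TPM + 1), and differences are given relative to that. On this scale the 76 members that averaged at least 1 TPM had a median of -0.24 with an SD of 0.45 over genes, and 54 were negative and 22 positive. The added 1 draws low genes towards -0.52 on this scale, and with 0.1 added in its place the members' median was -0.23. The size depended on the scaling and the sign on the filter. With TMM-scaled counts the members' median was -0.19 and that of all protein-coding genes -0.10, and with no filter on low genes the members' median was 0.21.

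More members than background genes were relatively low in replicate 1, and fewer were relatively high. A relative log2 ratio above 0.58 was reached by 2 of 76 members (2.63%), where 9.86% of protein-coding genes had one. A ratio below -0.58 was reached by 18 members (23.7%), where 13.8% of protein-coding genes had one. The added 1 draws low genes towards -0.52, beside the lower limit and far from the upper one. The background genes were not matched to the members in level, and these counts were not redone with 0.1 added. The part of low level in these gaps was not tested. Nuclear-encoded respiratory chain genes had a median of -0.38 and cytosolic ribosomal protein genes one of -0.42. Lists closer to the members in function lay near 0: subunits under other symbols had a median of 0.09, mitochondrial aminoacyl-tRNA synthetases 0.01, translation factors -0.04 and assembly factors -0.06. The macrophage markers had a median of -1.03 on the same scale, with 6 of 8 negative. Adgre1, Mertk and Spi1, higher in replicate 1 by raw TPM, had -0.14, 0.0007 and 0.33. The stromal markers had a median of 3.53 over the 4 that averaged at least 1 TPM. Pdgfrb, below that limit, had -0.13 from 30 counts in replicate 1 and 9 in replicate 2. The part of cell makeup in the members' values was not tested. Across the 78 members, TPM in replicate 1 and in replicate 2 had a Spearman correlation of 0.83, which is over genes of the same libraries and not over samples.

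Members relatively high in replicate 1 were led by Mrps26, a mitochondria-specific small-subunit protein at chr2:130563742-130568695 on the plus strand. It had 103 counts (exact Poisson interval 84.1 to 125) in replicate 1 and 37 (26.1 to 51) in replicate 2, and its relative log2 ratio was 1.00. Those count intervals do not overlap, but the gene was picked for its extreme ratio, so this is no test of a difference. Mrpl3 came next at 0.70, although its counts of 386 and 359 were close. Its effective length was 1278 bases in replicate 1 and 1957 in replicate 2, and a coding transcript of 562 bases had 23.4 counts in replicate 1 and 0 in replicate 2. The difference in TPM for Mrpl3 thus came with another split between transcripts, and its reads hardly differed. Mrpl52 had 0.57, Mrpl28 had 0.55 and Mrpl4 had 0.42.

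At the other end, Mrpl32, at chr13:14608184-14613165 on the minus strand, had a ratio of -1.23. Its protein, a zinc-binding subunit, is known to be cut by the m-AAA protease before it joins the ribosome. It had 96 counts (77.8 to 117) in replicate 1 and 213 (185 to 244) in replicate 2, so its intervals do not overlap. This gene too was picked for its extreme ratio. Mrps33 had -1.20 from 19 and 34 counts, with effective lengths of 721 and 446 bases. Mrpl57 had -1.18 from 36 and 53 counts, with effective lengths of 2005 and 953 bases. Mrpl36 had -1.15 from 13 and 38 counts, and Mrpl50 had -1.11 from 21 and 68. The count intervals of Mrpl36 and of Mrpl50 did not overlap between the libraries either. Mrpl32 had effective lengths of 2707 and 2103 bases. For Mrpl32, Mrps33 and Mrpl57 the ratio includes a change of effective length, as in 16 members whose effective lengths differed by more than 0.3 on the log2 scale.

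**Figure D4:**
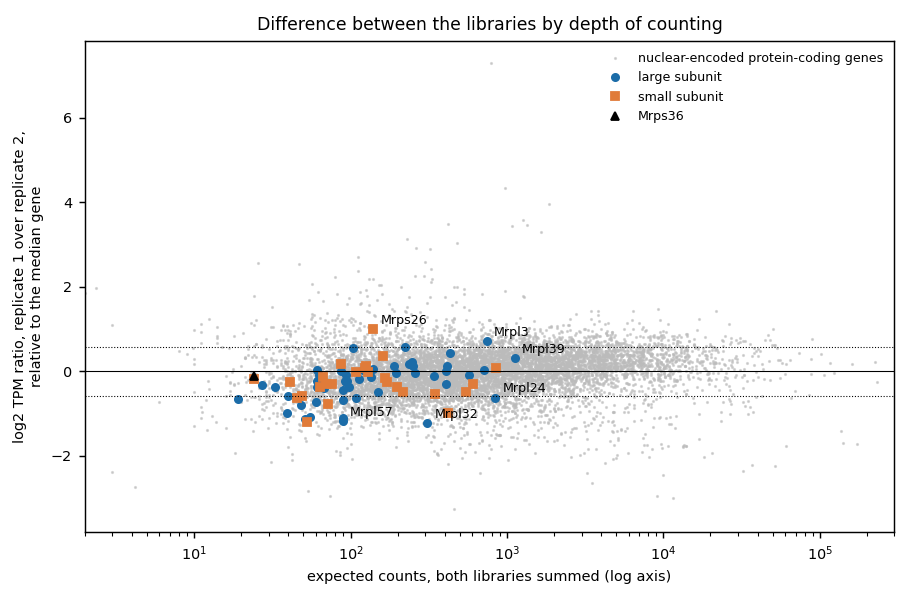
Log2 ratio of TPM + 1, replicate 1 over replicate 2, relative to the median gene, against the summed counts of both libraries on a log axis, for the members (coloured) over nuclear-encoded protein-coding genes that averaged at least 1 TPM (grey); dotted lines mark 0.58 and -0.58. The members sit in the lower part of the range of counts, centred on -0.24, with Mrps26 at 1.00 and Mrpl32 at -1.23 at the ends.

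The read-based table placed most members where the gene table did, with some exceptions. After each table was scaled to its protein-coding genes, 12 members were more than 2-fold higher in the read-based table and 0 were more than 2-fold lower. Over the 76 members that averaged at least 1 TPM, 11 (14.5%) were higher by that much, where 8.47% of protein-coding genes were, and 0.492% of protein-coding genes were lower by that much. The direction is thus that of genes at large. For Mrpl20, the read-based table gave 69.4 TPM in replicate 1 and 27.1 TPM in replicate 2, against 6.13 and 4.88 TPM in the gene table. The transcript Mrpl20-202 alone had 64.0 and 23.4 TPM in the read-based table. Mrpl2 had 18.04 and 4.82 TPM there, against 1.40 and 1.94 TPM in the gene table. Mrpl57 had 13.8 and 5.90 TPM in the read-based table, against 1.28 and 2.62 TPM in the gene table. Mrpl45, known to anchor the ribosome to the inner membrane, had 10.2 and 10.3 TPM in the read-based table, against 3.32 and 1.90 TPM in the gene table. Mrpl35, the lowest member of the gene table, was also among the 12, with 4.94 and 2.48 TPM in the read-based table against 0.89 and 0.87 TPM in the gene table. The others were Mrps36, Mrpl48, Mrpl42, Mrpl51, Mrpl27, Mrps17 and Mrps27. The levels of all 12 thus rest on the table chosen.

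The genes furthest in the other direction moved less. For Mrps34, the read-based table gave 0.82 TPM in replicate 1 and 0.96 TPM in replicate 2, against 1.64 and 1.86 TPM in the gene table. Mrps2 had 2.61 and 2.84 TPM in the read-based table, against 4.57 and 4.64 TPM in the gene table. Mrps30 had 2.02 and 1.62 TPM there, against 3.64 and 2.50 TPM in the gene table, and Mrpl34 had 1.51 and 1.01 TPM, against 2.18 and 1.81 TPM.

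**Figure D5:**
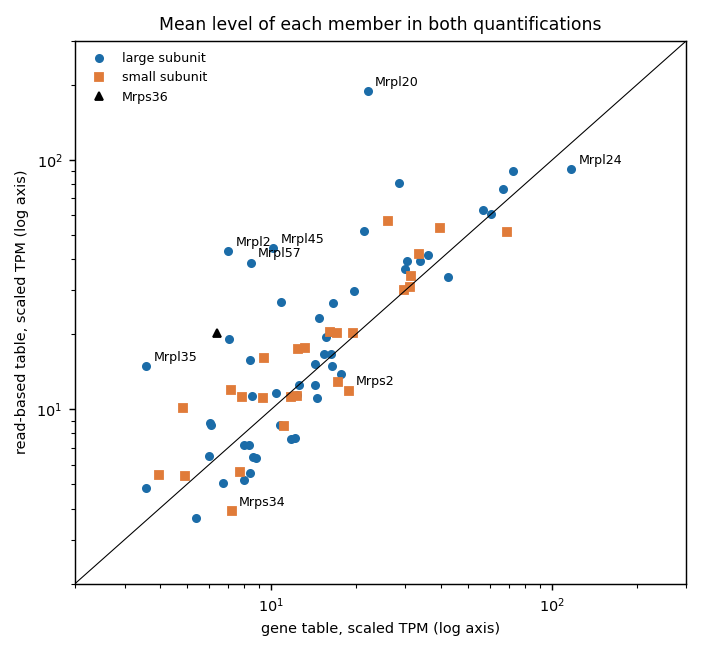
Mean level of each member over both libraries in the read-based table (y axis) and in the gene table (x axis), both in TPM scaled to the same sum over nuclear-encoded protein-coding genes, on log axes, with the line of equal values. Most members lie near the line, and Mrpl20, Mrpl2, Mrpl45, Mrpl57 and Mrpl35 lie far above it.

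The standard deviation that the authors' gene tables give for each estimated count concerns the gene as a whole, not the division of its reads between transcripts. It was 0 in both libraries for 53 of 78 members and above 2 in either library for 9. Exons of 33 members shared bases with another annotated gene, on the opposite strand in 28 and on the same strand in 8. The widest overlaps were Mrpl53, with 88.0% of its exon bases shared on the same strand, and Mrps25, with 69.8% shared with Nr2c2 on the opposite strand. Whether counting used strand is not given in the sources used here. Among processed pseudogenes with a member's name, Mrpl23-ps1 had 7.43 counts in replicate 1 and 12.1 in replicate 2, and Mrps36-ps2 had 0 and 1. The other 3 had 0 counts in both, which does not exclude low levels.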

How the data were processed

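The 2 libraries of 1 group were analysed. Each has gene and transcript tables that the authors deposited from a transcriptome alignment, and another transcript table from the read files, on mm10 with annotation M21, per the labels' notes. Of the authors' tools, versions and strand setting, nothing is given in the sources used here. Expected counts, as deposited, are estimates and can be fractional. TPM values, as deposited, are per effective length with a fixed total in each table. The authors' FPKM column, per effective length and library depth, served as an alternative. The authors' posterior standard deviation of each count was read as a score of ambiguity, per the file headers.

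Detection was 1 TPM or more in both libraries. Ratios used log2(TPM + 1) over genes averaging at least 1 TPM, minus the median of 9556 protein-coding genes. The added 1 understates differences of low genes and, after the subtraction, draws them towards -0.52. Noncoding share used genes at 5 TPM or more in both. No test between groups was possible. Scalings by edgeR 4.0.16 and DESeq2 1.42.0 (R 4.3.3) used rounded counts, and figures matplotlib 3.10.9. Tables were joined in Python 3.11.15 with scipy 1.17.1, numpy 2.4.6 and pandas 2.3.3. The ratio step was checked on simulated counts, but without the added 1 and with equal effective lengths in both libraries. It was therefore not checked at the setting used here. The share step was checked on a small made-up table. Members, related lists and named genes (the highest and lowest 8, the largest differences each way, the extreme noncoding shares, the largest gaps between tables, and roles) were chosen with earlier results of these data known. Splitting members by bacterial counterpart, and the alternative without shared exon bases, came after seeing the values.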

Additional observations from a re-analysis of the deposited data

How the results depend on the processing

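The levels depend on the unit. With values scaled so that nuclear-encoded protein-coding genes alone make up the per-million total, the median member had 12.5 TPM (12.5 from FPKM), large-subunit genes 12.5 (12.5 from FPKM) and small-subunit genes 12.8 (12.8 from FPKM), and in the read-based table members had 3.87 TPM and large-subunit genes 3.90 TPM. Leaving out each library in turn gave 2.85 to 3.64 TPM for members, 2.80 to 3.64 for the large subunit, 3.06 to 3.76 for the small subunit, 75 to 76 detected members, 0.0494% to 0.0529% of counts and a noncoding share of 46.4% to 51.5%. At 5 TPM, 18 members were detected. The share of counts was 0.0727% of protein-coding counts and 0.0797% in the read-based table. The difference between libraries was -0.17 with DESeq2 size factors (all genes -0.07), -0.12 in the read-based table and -0.094 over protein_coding transcripts, and 0.21 with no filter, where the subtracted median was 0.06, taken over all protein-coding genes with a median level of 0.40 TPM; leaving out a library gives no difference. The noncoding share was 65.2% in the read-based table, 54.3% in counts, 39.8% over 65 members at 1 TPM or more and 53.6% over 11 members with no shared exon base. No paired analysis was possible because both libraries belong to 1 group. With 52 members under 100 counts in both libraries, depth limits the order of low genes.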

Other observations

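Among genes outside the set that serve the mitoribosome, Mrm2, a methyltransferase of the mitochondrial large ribosomal RNA, differed most between the libraries. It had 142 counts and 8.22 TPM in replicate 1, against 15 counts and 0.58 TPM in replicate 2, and was picked out after its values were seen. Slirp, which with Lrpprc stabilises mitochondrial mRNA, had 47.3 counts in replicate 1 and 133 in replicate 2, while Lrpprc had 399 and 408. Dhx30, a helicase of mitochondrial RNA granules, had 19.1 TPM in replicate 1 and 11.4 TPM in replicate 2, and Malsu1, an assembly factor of the large subunit, had 17.1 and 12.3 TPM. Members without an annotated noncoding transcript numbered 10 and had a median of 1.97 TPM, against 3.63 TPM for the 68 members with one.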
